A study of Danio rerio with 20 samples.

Results

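The genes described here are the claudins, taken as every gene of the count table whose symbol begins with cldn. The rule found 34 genes of 32520, each with a symbol of its own, and 29 of them had enough counts to be tested. They were measured by RNA sequencing in zebrafish larvae (Danio rerio, wild type), each sample a pool of 10 whole animals aged 5 days after fertilisation, in 4 groups of 5 pools. The groups SEC JUN20 and SEC OCT20 were kept from day 4 to day 5 in fish water with a secondary effluent extract (SEC) of a wastewater treatment plant at a final strength given as 20x, the effluent coming from sampling campaigns named JUN20 and OCT20. The groups CTRL JUN20 and CTRL OCT20 were the controls of the same campaigns, and the labels say no more about their water. Nothing says whether the pools came from separate spawns, so p-values measure only the spread between pools, which may be technical.

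Claudins are membrane proteins that join neighbouring epithelial or endothelial cells at the tight junction, the belt that closes the gap between cells. Some members seal this gap and others form pores that let chosen ions or water through, so the mix of claudins sets how leaky a tissue is. In fish larvae the skin faces the water directly and carries the salt-pumping ionocytes, while other claudins line the gut, the kidney tubules, the inner ear, blood vessels and myelin. Fish carry many extra claudin copies, several of them known by letters because no single mammalian counterpart could be assigned. The rule also takes in cldnd1a and cldnd1b, which encode claudin-domain proteins, relatives of the classical claudins.

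Library totals ran from 28.8 to 59.9 M counts (M for mega), and the fewest counts of a tested claudin in a library were 27. Values are given as CPM, counts per M counts of the library after TMM scaling, and are not divided by transcript length, so they compare 1 gene across libraries and not one gene with another. Changes are log2 fold changes with their standard error, SEC minus CTRL, from edgeR's quasi-likelihood test over 23121 genes with all 20 libraries in the fit, adjusted by the Benjamini-Hochberg method and called under 0.05. As a check of exposure, cyp1a, a gene switched on by aryl hydrocarbon receptor ligands, rose by 3.08 ± 0.064 in JUN20 and by 3.95 ± 0.067 in OCT20. Markers of the tissues that carry claudins were detected: 29 of 29 listed genes of the epidermis, 20 of 21 of ionocytes, 14 of 14 of the pronephros and 12 of 13 of the inner ear had counts that could be tested. The listed ionocyte and inner ear genes missing from these tallies had no matching symbol in the count table. In a whole larva, fewer cells of a type and less RNA per cell cannot be told apart. The October libraries were split into 2 sets of 5 by the unscaled counts of 1 gene, si:dkey-269o24.1. The cut was placed at the largest gap between these counts on the log2 scale, and such a cut always gives 2 sets. Counts were at most 29 in CTRL replicates 1, 3 and 5 and SEC replicates 4 and 5 (the low side). They were at least 106 in the others (the high side). The labels give no reason for this split.

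Most claudins that changed were higher with the extract. In JUN20, 7 of 29 tested claudins rose, where 5.92% of all genes did, and 1 fell, where 4.90% of all genes did. In OCT20, 9 of 29 rose, against 9.54% of all genes, and 1 fell, against 8.49%. The changes were small, the biggest being a 2.02-fold rise of cldn23a in OCT20. The median log2 change over the 29 claudins was 0.033 in JUN20 and 0.086 in OCT20, beside -0.0049 and -0.014 over all genes. Of the 29, 16 stood above 0 in JUN20 and 17 in OCT20, where 48.7% and 46.6% of all genes did. Summed over the 29, claudin levels were 651 ± 17.2 CPM in CTRL JUN20 and 692 ± 24.2 in SEC JUN20 (SD, n = 5 in each group). They were 648 ± 20.4 in the October controls and 752 ± 38.7 with the October extract. Members with the most counts weigh most in these sums, so the sums do not show how many members rose. All 5 SEC libraries lay above all 5 CTRL libraries in 6 claudins in JUN20 (20.7%, against 6.54% of all genes) and in 9 in OCT20 (31.0%, against 6.43%). All 5 SEC libraries lay below in 1 claudin in JUN20, where 6.04% of all genes did, and in 0 in OCT20, where 4.70% did.

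**Figure D1:**
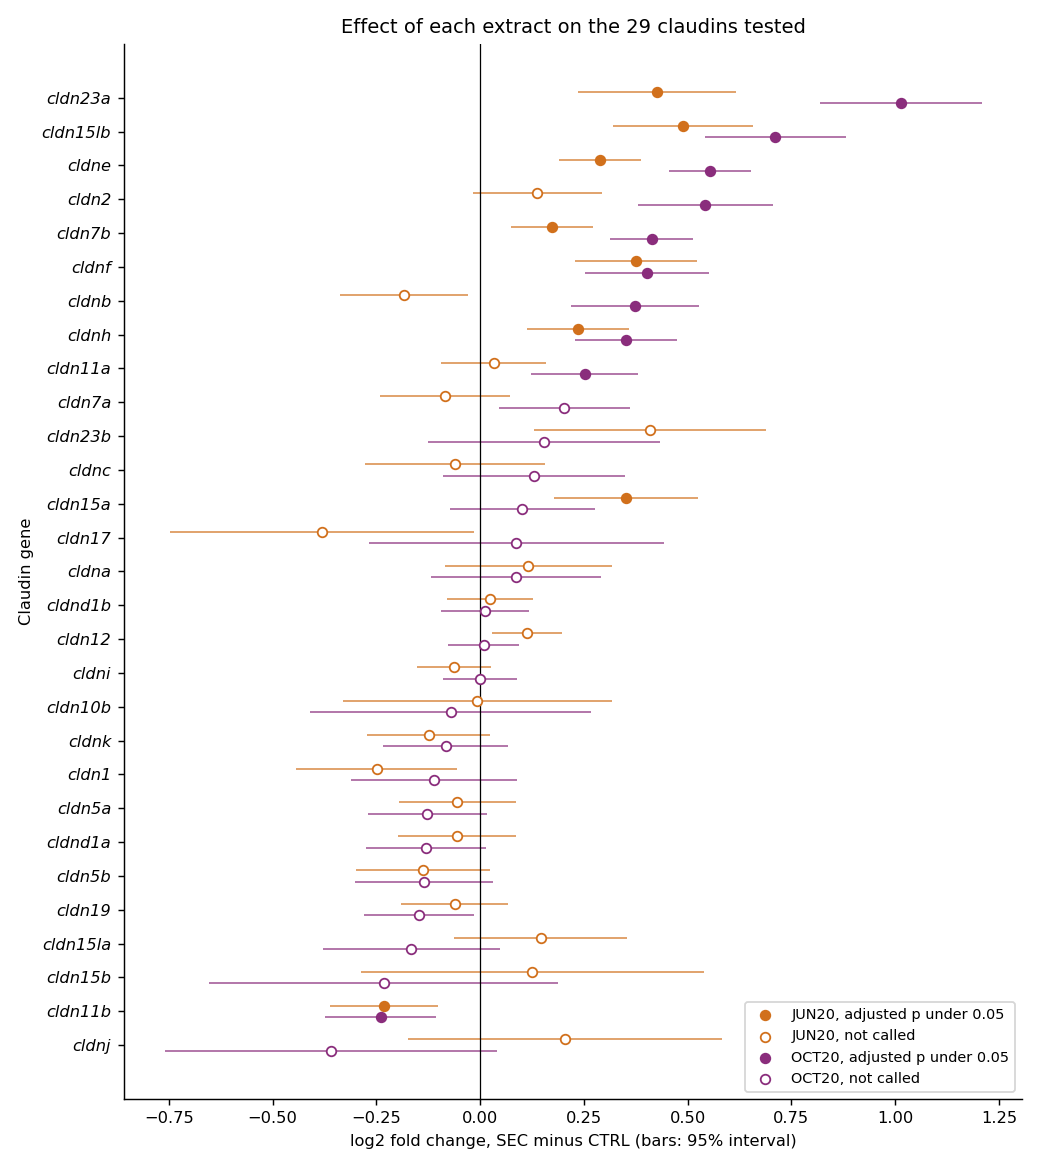
Log2 fold change of SEC against CTRL with its 95% interval (x axis) for the 29 tested claudins (y axis), ordered by the October change, with JUN20 in orange and OCT20 in purple and filled points for adjusted p under 0.05. The called claudins lie to the right of 0 except cldn11b, and cldn23a reaches 1.01 in OCT20.

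Among claudins of the larval skin, cldne and cldnf rose in both campaigns while cldni was not called in either. The gene cldne (ENSDARG00000043128), which marks the outer epithelial layer of the embryo, stood at 72.6, 71.3, 75.5, 72.7 and 77.1 CPM in the CTRL JUN20 libraries and at 91.3, 86.0, 87.4, 89.2 and 97.2 in SEC JUN20. In OCT20 it stood at 74.9, 77.6, 74.5, 75.8 and 65.7 in CTRL and at 102, 105, 108, 105 and 121 in SEC. The groups did not overlap in either campaign, and CTRL OCT20 replicate 5 was low and SEC OCT20 replicate 5 high within their groups. The rise was 1.22-fold in JUN20 (log2 0.29 ± 0.051, adjusted p = 0.000681) and 1.47-fold in OCT20 (log2 0.55 ± 0.051, adjusted p = 6.16e-08).

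The gene cldnf (ENSDARG00000043133) stood at 11.6, 10.5, 11.3, 10.6 and 11.01 CPM in CTRL JUN20 and at 14.4, 12.8, 13.2, 14.7 and 16.2 in SEC JUN20. In OCT20 it stood at 10.3, 10.7, 12.3, 12.1 and 10.24 in CTRL and at 15.4, 13.5, 14.2, 13.4 and 16.8 in SEC. Again no SEC library overlapped a CTRL library of its campaign. The rise was 1.30-fold (log2 0.38 ± 0.075, adjusted p = 0.00219) and 1.32-fold (log2 0.40 ± 0.076, adjusted p = 0.000616).

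The gene cldnb (ENSDARG00000009544), expressed in epidermis and in the migrating lateral line primordium, moved differently in the 2 campaigns. Its levels were 35.5, 36.0, 38.1, 37.7 and 38.7 CPM in CTRL JUN20 and 30.5, 29.5, 31.8, 32.3 and 39.4 in SEC JUN20. In OCT20 they were 33.2, 31.6, 34.0, 30.8 and 35.3 in CTRL and 37.0, 41.0, 42.8, 40.8 and 52.0 in SEC. In JUN20 4 SEC libraries lay below all controls and replicate 5 lay above them, and the change was not called (log2 -0.18 ± 0.078, adjusted p = 0.144). Without that library the June change was -0.26 ± 0.071 and passed as lower (adjusted p = 0.0240). In OCT20 cldnb rose 1.30-fold with no overlap (log2 0.37 ± 0.079, adjusted p = 0.00178).

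The gene cldni (ENSDARG00000054616) was at 125, 111, 122, 115 and 122 CPM in CTRL JUN20, 114, 112, 110.3, 116 and 117 in SEC JUN20, 114, 126, 116, 124 and 113 in CTRL OCT20 and 114, 116, 131, 112 and 121 in SEC OCT20. The 4 groups overlapped, with 95% intervals of the log2 change of -0.15 to 0.026 in JUN20 and -0.090 to 0.089 in OCT20, so changes as large as those of cldne lie outside both intervals. The remaining members of the skin group were not called: cldna had log2 changes of 0.12 ± 0.10 and 0.086 ± 0.10, and cldn1, whose mouse counterpart is needed for the water barrier of the skin, -0.25 ± 0.10 (adjusted p = 0.114) and -0.11 ± 0.10. In all, 2 of 6 tested claudins of the skin group rose in JUN20 and 3 of 6 in OCT20, against 5.92% and 9.54% of all genes, and none was called lower by edgeR. At an unadjusted p under 0.05, cldnb and cldn1 were lower in JUN20, where 24.8% of all genes passed in either direction. Median log2 changes of this group were 0.027 and 0.23.

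**Figure D2:**
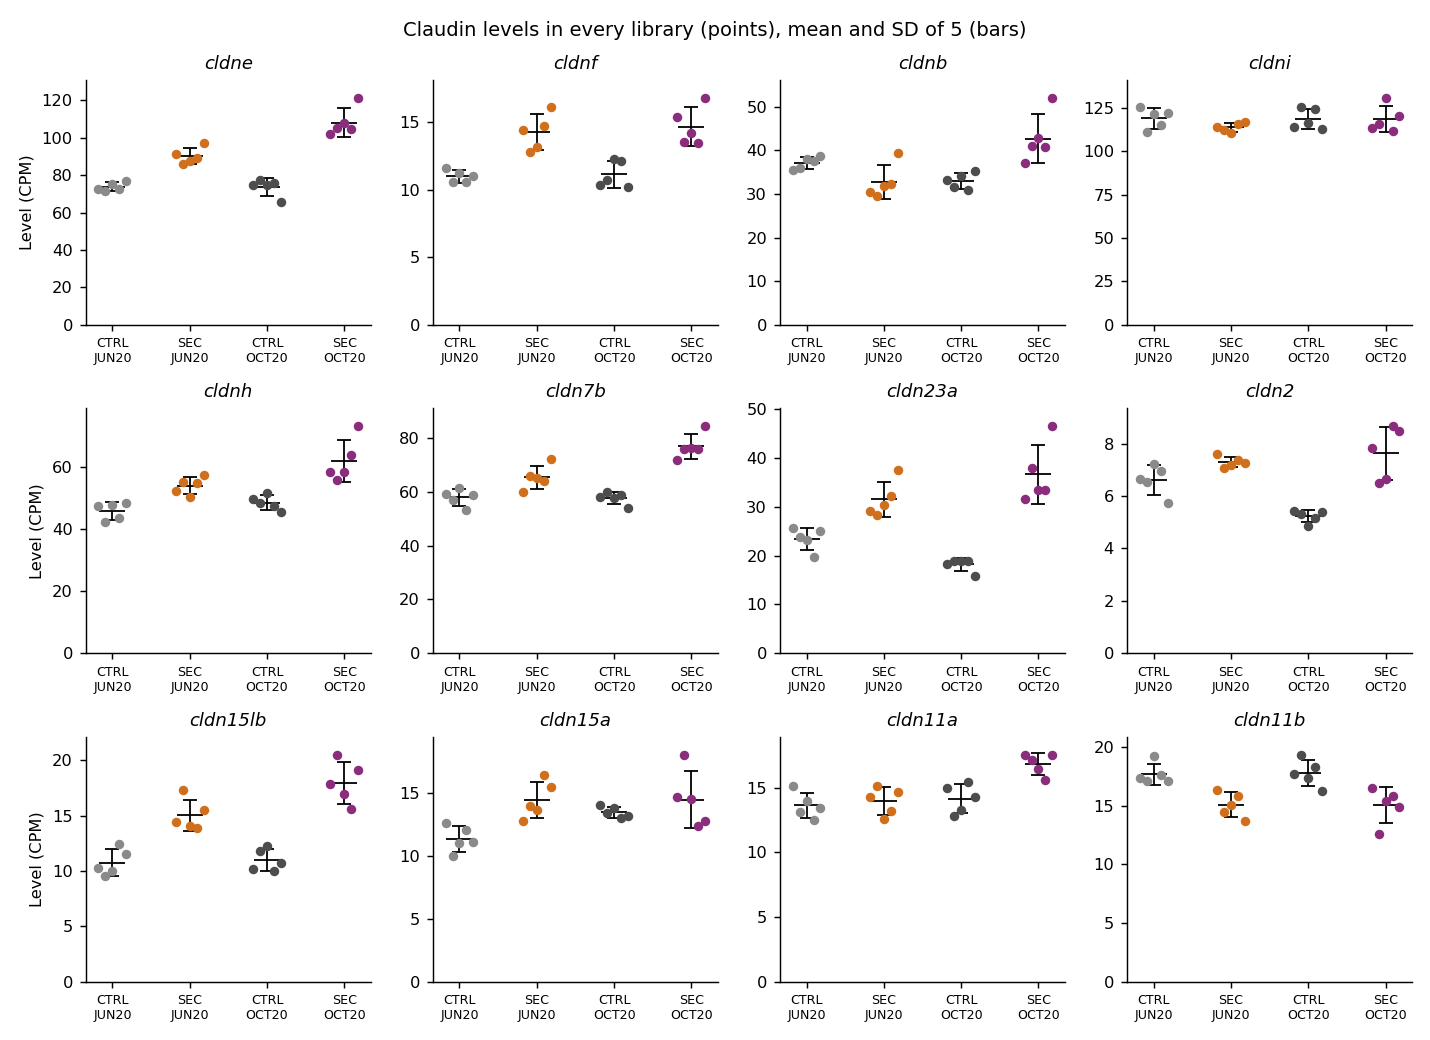
Level in CPM (y axis, from 0) of 12 claudins in each of the 20 libraries (points), by group, with the mean and SD of 5 libraries as black bars. The groups SEC and CTRL do not overlap for cldne, cldnf, cldnh, cldn23a and cldn15lb in either campaign, while cldni stays between 110.3 and 131 CPM in all libraries.

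The gene cldn7b (ENSDARG00000014047), whose mammalian counterpart lies along the sides of epithelial cells and binds the adhesion protein EpCAM, was at 59.3, 57.1, 61.4, 53.1 and 58.9 CPM in CTRL JUN20 and 60.0, 65.9, 65.1, 63.9 and 72.0 in SEC JUN20. The October libraries held 58.2, 60.1, 57.7, 58.7 and 54.0 in CTRL and 71.9, 75.9, 76.2, 75.7 and 84.3 in SEC. Groups overlapped in JUN20 through SEC replicate 1 and were apart in OCT20. The rise was 1.13-fold in JUN20 (log2 0.17 ± 0.050, adjusted p = 0.0283) and 1.33-fold in OCT20 (log2 0.41 ± 0.051, adjusted p = 3.68e-06). The June call did not hold in 5 of 20 fits that left out 1 library, namely those without CTRL JUN20 replicates 2 or 4 or SEC JUN20 replicates 2, 3 or 5 (adjusted p = 0.0512 to 0.0902). Its paralog cldn7a was at -0.084 ± 0.080 and 0.20 ± 0.080 and was not called by edgeR with all libraries, but passed as higher in OCT20 with the October side as a covariate (0.24 ± 0.067, adjusted p = 0.0115).

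The gene cldnh (ENSDARG00000069503), listed as cldn3c in the reference table of symbols and so a relative of the sealing claudin 3 of mammals, was at 47.6, 42.3, 47.7, 43.6 and 48.6 CPM in CTRL JUN20 and 52.4, 55.4, 50.4, 54.8 and 57.5 in SEC JUN20. In OCT20 the values were 49.8, 48.4, 51.9, 47.7 and 45.5 in CTRL and 58.4, 56.0, 58.6, 63.9 and 73.3 in SEC. All SEC libraries lay above all controls of their campaign. The rise was 1.18-fold (log2 0.24 ± 0.063, adjusted p = 0.0173) and 1.28-fold (log2 0.35 ± 0.063, adjusted p = 0.000341), and the June call did not hold without CTRL JUN20 replicate 2 (adjusted p = 0.0517). The related gene cldnc, listed as cldn3d, was not called (-0.061 ± 0.11 and 0.13 ± 0.11).

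The change of cldn23a (ENSDARG00000028096) in OCT20 was the biggest of the family. In JUN20 it was at 25.6, 23.9, 23.1, 19.8 and 24.9 CPM in CTRL and 29.2, 28.3, 30.3, 32.1 and 37.5 in SEC. In OCT20 it was at 18.4, 18.8, 18.9, 18.9 and 15.9 in CTRL and 31.6, 38.0, 33.5, 33.5 and 46.4 in SEC. Every SEC library lay above every control of either campaign, and SEC OCT20 replicate 5 was the highest of all. The rise was 1.34-fold (log2 0.43 ± 0.10, adjusted p = 0.0064) and 2.02-fold (log2 1.01 ± 0.10, adjusted p = 2.04e-07). Its paralog cldn23b, at 2.29 ± 0.471 and 3.03 ± 0.396 CPM in CTRL and SEC JUN20, had a June change that edgeR did not call (log2 0.41 ± 0.14, adjusted p = 0.0685) and DESeq2 did (log2 0.41 ± 0.15, adjusted p = 0.0392), and 0.15 ± 0.14 in OCT20.

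Members named for pore-forming claudins of gut and kidney gave a mixed picture. The gene cldn15lb (ENSDARG00000100844), a copy of claudin 15, the sodium pore of the mouse gut, was at 10.23, 9.57, 10.0, 12.5 and 11.5 CPM in CTRL JUN20 and 14.45, 17.3, 14.03, 13.9 and 15.5 in SEC JUN20. October values were 10.17, 11.8, 12.3, 10.0 and 10.7 in CTRL and 17.8, 20.5, 16.996, 15.6 and 19.1 in SEC. No group overlapped its control, and the rise was 1.40-fold (log2 0.49 ± 0.086, adjusted p = 0.000727) and 1.64-fold (log2 0.71 ± 0.087, adjusted p = 3.56e-06). The gene cldn15a (ENSDARG00000112049) was at 12.6, 9.98, 11.1, 12.1 and 11.1 CPM in CTRL JUN20 and 12.8, 13.9, 13.7, 16.4 and 15.5 in SEC JUN20, without overlap. In OCT20 it was at 14.03, 13.4, 13.8, 13.0 and 13.1 in CTRL and 14.7, 18.03, 14.49, 12.4 and 12.7 in SEC, where the groups overlapped. It rose in JUN20 (log2 0.35 ± 0.088, adjusted p = 0.0122) and was not called in OCT20 (log2 0.10 ± 0.089, adjusted p = 0.493), and the difference between the campaigns was not called either (adjusted p = 0.438).

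The gene cldn2 (ENSDARG00000044387), in mammals a pore for cations and water, was at 6.66, 6.54, 7.22, 6.95 and 5.72 CPM in CTRL JUN20 and 7.60, 7.07, 7.17, 7.39 and 7.25 in SEC JUN20. The October levels were 5.42, 5.32, 4.85, 5.16 and 5.40 in CTRL and 7.84, 6.51, 6.64, 8.66 and 8.47 in SEC. It rose 1.46-fold in OCT20 with no overlap (log2 0.54 ± 0.083, adjusted p = 5.98e-05), and its June change was not called (log2 0.14 ± 0.080, adjusted p = 0.298). The gene cldn15la (ENSDARG00000016081), whose regulatory region is used to mark the zebrafish gut, was at 39.3, 39.6, 44.2, 42.9 and 44.4 CPM in CTRL JUN20 and 41.0, 56.6, 43.7, 44.1 and 47.3 in SEC JUN20. October levels were 36.2, 47.6, 38.1, 44.1 and 32.6 in CTRL and 38.3, 39.8, 38.3, 27.4 and 32.9 in SEC. Its groups overlapped in both campaigns and neither change was called (log2 0.15 ± 0.11 and -0.17 ± 0.11). With the October side as a covariate, its October change was -0.24 ± 0.073 and passed as lower (adjusted p = 0.0206). The thinly counted members cldn15b, cldn10b and cldn17 were not called in either campaign. Of 7 tested members that bear the names of mammalian pore formers, 2 rose in each campaign, against 5.92% and 9.54% of all genes, and none was called lower by edgeR, with medians of 0.14 and 0.087. None of the 7 was lower at an unadjusted p under 0.05. In either direction, 24.8% of all genes passed that level in JUN20 and 29.7% in OCT20. Among them cldn17, whose October change is the October median, is cldn8.3 in the reference table of symbols. Its place in this group thus rests on its name in the count table.

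The myelin group held the 1 claudin that fell. The gene cldn11b (ENSDARG00000030723), a copy of claudin 11 of mammalian central myelin, was at 17.4, 17.1, 19.3, 17.6 and 17.2 CPM in CTRL JUN20 and 16.3, 14.50, 15.1, 15.8 and 13.7 in SEC JUN20, without overlap. In OCT20 it was at 17.7, 19.4, 17.4, 18.3 and 16.3 in CTRL and 16.5, 12.6, 15.4, 15.9 and 14.9 in SEC, where SEC replicate 1 lay above the lowest control. The log2 change was -0.23 ± 0.067, adjusted p = 0.0271 in JUN20 and -0.24 ± 0.068, adjusted p = 0.0161 in OCT20. These calls were close to the threshold: the June call did not hold without CTRL JUN20 replicate 3 or SEC JUN20 replicates 2, 3 or 5 (adjusted p = 0.0519 to 0.0868), nor the October call without CTRL OCT20 replicate 2 (adjusted p = 0.0512). The paralog cldn11a (ENSDARG00000020031) went the other way in OCT20, from 14.1 ± 1.11 to 16.8 ± 0.832 CPM (log2 0.25 ± 0.065, adjusted p = 0.00906), with 0.033 ± 0.065 in JUN20. The gene cldnk, the claudin of zebrafish myelinating glia, was not called (-0.12 ± 0.075 and -0.083 ± 0.077).

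Claudins of vessels and of the ear were not called. The endothelial genes cldn5a and cldn5b, named for the claudin of the blood-brain barrier, had log2 changes of -0.055 ± 0.072 and -0.14 ± 0.082 in JUN20 and -0.13 ± 0.073 and -0.13 ± 0.085 in OCT20. With the October side as a covariate cldn5b passed as lower in OCT20 (-0.19 ± 0.061, adjusted p = 0.0243). The gene cldnj, needed for normal otoliths in the zebrafish ear, was at 0.20 ± 0.19 and -0.36 ± 0.20. The changes of cldn19, known from mammalian kidney and nerve, were -0.062 ± 0.066 and -0.15 ± 0.067. Those of cldn12 were 0.11 ± 0.043 and 0.0081 ± 0.043, with 31.9, 29.8, 27.96, 29.3 and 29.7 CPM in CTRL JUN20, 31.3, 33.2, 31.6, 32.1 and 32.5 in SEC JUN20, 32.9, 34.6, 34.6, 30.9 and 33.5 in CTRL OCT20 and 34.2, 33.6, 32.4, 31.7 and 35.5 in SEC OCT20, and SEC overlapped CTRL in both campaigns. Changes of the claudin-domain genes were, of cldnd1a -0.056 ± 0.072 and -0.13 ± 0.074, and of cldnd1b 0.023 ± 0.053 and 0.011 ± 0.054. Over the 18 tested claudins called in neither campaign, log2 changes ran from -0.38 to 0.41 in JUN20 and from -0.36 to 0.20 in OCT20, with adjusted p from 0.0685 to 0.987 and from 0.0880 to 0.993 in edgeR's test. The spread between libraries differed among members: the mean coefficient of variation within groups was 22.7% for cldn15b and 20.6% for cldnj, against 4.64% for cldni and 5.38% for cldne.

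The other 5 members, cldn10a, cldn10l2, cldn18, cldnd and cldng, had at most 15 counts in any library and were not tested. The median count over 20 libraries was 3 for cldn10a, 5 for cldn10l2, 3 for cldn18, 1 for cldnd and 6 for cldng, and cldnd had 0 in 8 libraries. A count of 0 allows up to 3 counts, between 0.0501 and 0.104 CPM by library total, covering counting error only. The mammalian claudin 18 belongs to stomach and lung, and the zebrafish has no stomach.

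Both campaigns had their own controls, so their calls can be set side by side. The extract and the pools of larvae both changed between campaigns, so their parts in a difference of effects cannot be told apart. Of the 7 claudins that rose in JUN20, 6 also rose in OCT20 (85.7% of the June list and 66.7% of the October list): cldne, cldnf, cldnh, cldn7b, cldn23a and cldn15lb. That is 20.7% of the tested claudins, against 3.86% of all genes called higher in both. Over all genes 893 were called higher in both, of 1368 higher in JUN20 and 2205 in OCT20. Most June rises of any gene thus recurred in OCT20. The gene cldn11b was the 1 member called lower in both, where 2.51% of all genes were. The October change was larger in 6 of the 6 shared genes, but the difference itself passed for cldn23a alone among them. How many of the 893 genes also changed more in OCT20 was not tallied, so 6 of 6 cannot be called particular to claudins. More genes of any kind were called higher in OCT20 than in JUN20, and cyp1a also rose more in OCT20. Its controls were lower in OCT20 than in JUN20 (log2 -0.76 ± 0.062, adjusted p = 1.41e-07 by edgeR). Levels of cyp1a were 47.7 to 57.4 CPM in CTRL JUN20 and 28.9 to 34.8 in CTRL OCT20. With the extract they were 420 to 498 CPM in JUN20 and 453 to 521 in OCT20. The part of the control levels in the larger rise of cyp1a was not tested.

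Tested directly, the October effect exceeded the June effect in 2 of 29 claudins, where the October effect was the larger in 0.787% of all genes and 1.03% differed in either direction. For cldnb the difference was 0.56 ± 0.11 (adjusted p = 0.0127), and for cldn23a 0.59 ± 0.14 (adjusted p = 0.0423). No claudin was called with a smaller October effect by edgeR in the fit of 4 group means, where 0.247% of all genes were. None had a smaller one at an unadjusted p under 0.05 either, where 12.3% of all genes differed in either direction. With the October side as a covariate cldn15la had a smaller October effect (-0.38 ± 0.10, adjusted p = 0.0430). DESeq2 called 4 differences, adding cldn2 and cldne, all larger in OCT20. Over all genes DESeq2 called 606 differences, against 239 by edgeR. The call of cldn23a did not hold in 14 of 20 fits that left out 1 library (adjusted p = 0.0530 to 0.0836 where lost), namely without CTRL JUN20 replicates 1, 2, 3 or 5, SEC JUN20 replicates 1 to 4, CTRL OCT20 replicates 1, 3, 4 or 5, or SEC OCT20 replicates 2 or 5. That of cldnb held in all 20 (0.474 to 0.634 on the log2 scale).

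The control groups themselves differed for 3 of 29 claudins (10.3%, against 5.80% of all genes), 1 higher in OCT20 (2.83% of all genes) and 2 lower (2.97%). The 2 control groups did not overlap in 1 claudin that was higher in OCT20 (2.60% of all genes) and in 3 that were lower (3.14%). The higher one was cldn15a, not called by edgeR (log2 0.25 ± 0.090, adjusted p = 0.106). The lower ones were cldn2, cldn23a and cldnb, of which cldnb was not called (log2 -0.17 ± 0.079, adjusted p = 0.201). From CTRL JUN20 to CTRL OCT20, cldn2 fell from 6.62 ± 0.568 to 5.23 ± 0.235 CPM (log2 -0.34 ± 0.083, adjusted p = 0.0197) and cldn23a from 23.4 ± 2.27 to 18.2 ± 1.31 (log2 -0.37 ± 0.10, adjusted p = 0.0324), while cldn12 rose from 29.7 ± 1.41 to 33.3 ± 1.51 (log2 0.16 ± 0.043, adjusted p = 0.0291). In the SEC groups cldn2 was at 7.30 ± 0.205 and 7.62 ± 1.004 CPM and cldn23a at 31.5 ± 3.65 and 36.6 ± 5.97. Mean levels of cldn15a were 11.35 and 13.46 CPM in CTRL JUN20 and CTRL OCT20, and 14.45 and 14.47 in the SEC groups. Those of cldnb in the SEC groups were 32.69 and 42.72 CPM. The part of the control levels in the differences between campaigns was not tested. The comparisons between controls share the control libraries with the campaign effects and with the difference between these effects. The calls depended on single libraries. Of 20 fits that left out 1 library, cldn12 lost its call in 7 (without CTRL JUN20 replicates 2, 3, 4 or 5 or CTRL OCT20 replicates 1, 3 or 5; adjusted p = 0.0506 to 0.0874) and cldn23a in 7 (without CTRL JUN20 replicates 1, 2, 3 or 5 or CTRL OCT20 replicates 1, 3 or 5; adjusted p = 0.0532 to 0.0859). The gene cldn2 lost its call in 2, without replicate 3 of either control group (adjusted p = 0.0590 and 0.0514), and no claudin passed there. On all libraries DESeq2 called the same 3 genes, and 6 of 29 claudins differed at an unadjusted p under 0.05, where 22.4% of all genes did.

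The October rise was seen on both sides of the October libraries. The sides divide the same libraries that gave the October calls, so their agreement with those calls is not a separate test. Within the low side 9 claudins rose and 1 fell (8.03% and 6.12% of all genes), and within the high side 8 rose and 1 fell (8.81% and 8.62%). The 8 that rose on the high side, cldne, cldnf, cldnb, cldnh, cldn7b, cldn23a, cldn2 and cldn15lb, also rose on the low side, where cldn7a (0.41 ± 0.077) rose as well. The log2 change of cldne was 0.66 ± 0.065 in the low set and 0.45 ± 0.066 in the high set, against 0.55 ± 0.051 over all. That of cldn23a was 1.18 ± 0.14 and 0.86 ± 0.14, and that of cldn2 0.71 ± 0.10 and 0.42 ± 0.11. For cldn15lb the values were 0.66 ± 0.12 and 0.75 ± 0.13. For cldn11b, called on the high side alone, they were -0.15 ± 0.094 and -0.34 ± 0.094. On the low side cldn1 passed as lower (-0.37 ± 0.12, adjusted p = 0.0438), and cldn11a was called on neither (0.23 ± 0.095 and 0.27 ± 0.10). The effect differed between sides in 0 claudins after adjustment over all genes by edgeR and in 5 at an unadjusted p under 0.05. Over all genes that test called 0, with 3171 at an unadjusted p under 0.05, and DESeq2 was not run on it.

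**Figure D3:**
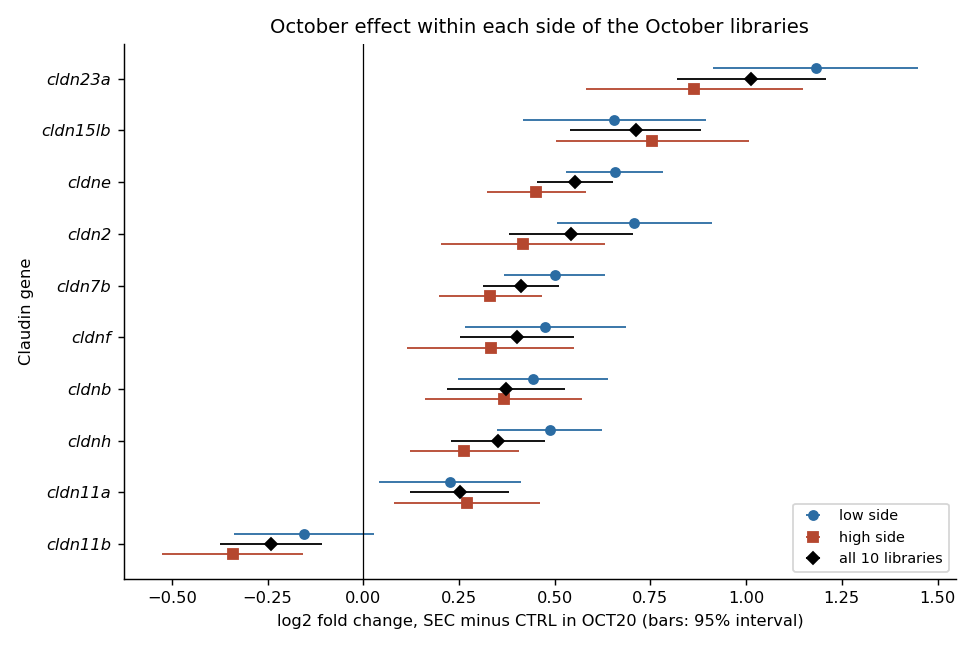
October log2 fold change with its 95% interval (x axis) for the 10 claudins called in OCT20 (y axis), in the low side (3 CTRL and 2 SEC libraries, blue circles), the high side (2 CTRL and 3 SEC libraries, red squares) and all 10 libraries (black diamonds). Each of the 10 genes has the same sign on both sides, and the intervals of the sides overlap. The genes were picked for their call over these same 10 libraries, so equal signs were likely in advance.

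Some libraries held the extreme of their group in more claudins than others. SEC OCT20 replicate 5 held the highest level of its group in 13 of 29 claudins, where it did so in 19.6% of all tested genes, and 7 of the 13 were among the 11 claudins called in either campaign. SEC JUN20 replicate 5 was the highest in 12 of 29, 6 of them among the 11, against 18.8% of all genes. These were also the deepest libraries of their groups, at 45.4 and 59.9 M counts. CTRL OCT20 replicate 5 was the lowest of its group in 10 of 29 (24.5% of all genes) and CTRL JUN20 replicate 2 in 11 of 29 (20.5%), with 6 of the 11 called claudins in each. SEC OCT20 replicate 4 was the lowest in 15 of 29 (23.9%). Whether these tallies differ from those of all genes was not tested. The 11 claudins were called on these same libraries, so the tallies among them are not independent of the calls. With SEC OCT20 replicate 5 left out, the 9 October rises all remained called, and with SEC JUN20 replicate 5 left out cldn7b and cldn11b lost their June calls. Whether depth has a part in this was not tested.

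**Figure D4:**
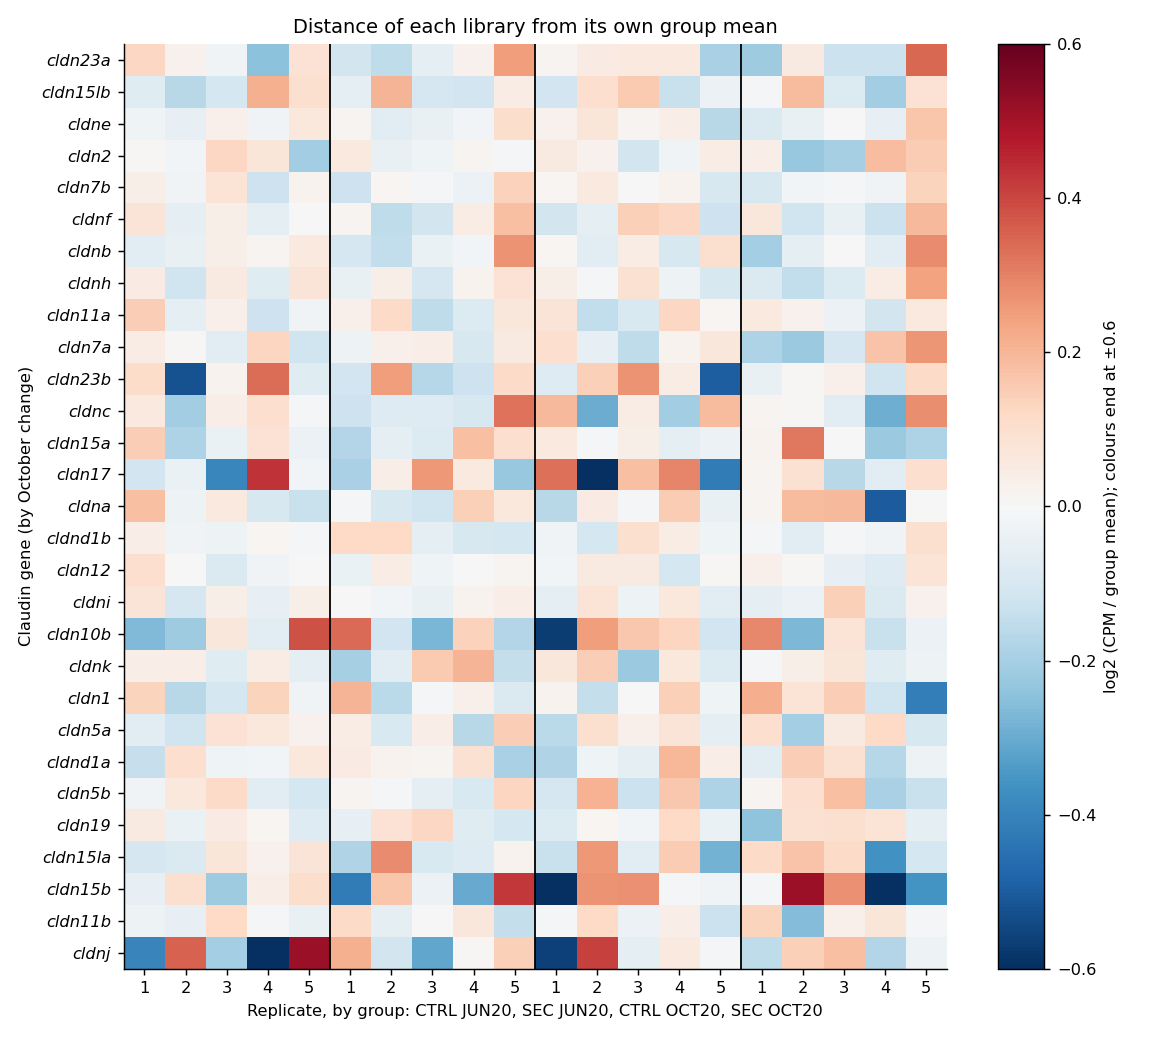
Log2 ratio of each library's CPM to its own group mean (colour) for the 29 tested claudins (rows, ordered by October change) in the 20 libraries (columns, by group). The column of replicate 5 in SEC OCT20 is red for each of the 10 claudins at the top, cldn23a to cldn7a. That library helps set the October change by which the rows are ordered, so this pattern is partly built in. The widest spread is that of cldn15b and cldnj.

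Several claudins lie beside each other in the genome, and neighbours were not all called alike. Differences between neighbours were not tested. In the NCBI RefSeq gene order of assembly GRCz12tu, a later build than that of the counts and used here for order only, 33 of 34 members were found and 12 lay in 5 runs of claudin neighbours. In the run cldnj, cldne, cldnf, cldna, with no other coding gene between, cldne and cldnf rose in both campaigns while cldnj and cldna were not called. In the run that begins cldnh, cldnc, cldnb, cldnh was called higher in both campaigns, cldnb in OCT20, and cldnc in neither. The gene cldnd of the same run had at most 5 counts in a library. This run also holds 2 genes that the count table lists under other symbols: cldn29, called in neither campaign, and cldn30, called higher in OCT20.

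Other genes of the tight junction were called in both directions, at shares near those of all genes. Of 51 tested genes of the partner list, 4 rose and 2 fell in JUN20, where 5.92% and 4.90% of all genes did, and 5 rose and 3 fell in OCT20, where 9.54% and 8.49% did. The median changes of the list were -0.0028 and 0.042. The gene oclna, for occludin, a sealing protein of the junction strands, rose in both campaigns (0.31 ± 0.050, adjusted p = 0.000337, and 0.21 ± 0.051, adjusted p = 0.00604), as did cgnb, for cingulin, which ties the junction to the cytoskeleton (0.25 ± 0.059 and 0.25 ± 0.062). In JUN20 but not in OCT20, marveld2b, for tricellulin, and lsr, for angulin, both of the corners where cells meet, passed as higher (0.28 ± 0.071 and 0.19 ± 0.047), and the adhesion gene jam3a and tjap1 passed as lower (-0.23 ± 0.062 and -0.14 ± 0.042). In OCT20 but not in JUN20, crb3b, of the apical polarity complex, and ildr1a, another angulin gene, passed as higher (0.53 ± 0.12 and 0.31 ± 0.085), as did pard6a (0.22 ± 0.064). The angulin-family gene ildr2 (-0.18 ± 0.061), cgnl1 (-0.16 ± 0.044) and the scaffold gene magi1a (-0.17 ± 0.060) passed as lower there. The effect differed between campaigns in 0 of the 51 by edgeR, where it did in 1.03% of all genes. The scaffold genes tjp1a, tjp1b, tjp2a, tjp2b and tjp3, which bind claudin tails, were not called in either campaign.

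Most called markers of the skin were lower with the extract, while its called claudins were higher. Of 29 epidermal genes 12 fell and 3 rose in JUN20 and 19 fell and 2 rose in OCT20, with medians of -0.19 and -0.25. Among all genes 4.90% fell and 5.92% rose in JUN20, and 8.49% fell and 9.54% rose in OCT20. Their summed level ran from 16882 to 20800.5 CPM in CTRL JUN20, 12518 to 13782 in SEC JUN20, 17816 to 19981 in CTRL OCT20 and 9515 to 13434 in SEC OCT20, and none was at 0. The cytokeratin gene cyt1l was at -0.88 ± 0.091 and -1.18 ± 0.091 and the desmosome gene pkp1b at -0.59 ± 0.067 and -0.95 ± 0.069. The epidermal genes that rose in both campaigns were grhl3 (0.58 ± 0.10 and 0.67 ± 0.10) and grhl1 (0.17 ± 0.055 and 0.35 ± 0.057), which encode grainyhead-like factors of epithelial barrier formation. They were named after their values were seen.

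Ionocyte markers rose in 7 of 20 genes and fell in 1 in JUN20, and rose in 9 and fell in 1 in OCT20. The shares of all genes that rose and fell were 5.92% and 4.90% in JUN20 and 9.54% and 8.49% in OCT20, and some of the counts that follow, such as 2 higher of 18 enterocyte markers in JUN20 and 1 lower of 17 endothelial markers in OCT20, are near them. The summed level of ionocyte markers was 1819 to 1970.1 CPM in CTRL JUN20, 1961 to 2191 in SEC JUN20, 1767 to 2069 in CTRL OCT20 and 2144 to 2304 in SEC OCT20. Pronephros markers rose in 3 of 14 in JUN20 and in 7 of 14, with 1 lower, in OCT20, their sum being 600.1 to 650.0, 619 to 688, 547 to 657 and 602 to 714 CPM in the same order of groups. Enterocyte markers gave 2 higher and 4 lower of 18 in JUN20 and 4 higher and 5 lower in OCT20, with sums of 2503 to 2796, 2419 to 2955, 2145 to 2747 and 2253 to 2669 CPM. Myelin markers fell in 2 of 15 in JUN20, mbpa and mbpb, and in none in OCT20 by edgeR, with sums of 452 to 485, 409 to 443, 476 to 497 and 460.3 to 489 CPM. Endothelial markers rose in 0 of 17 in JUN20 and in 3, with 1 lower, in OCT20, and those of the inner ear were called in 0 of 12 in both. No marker of these lists was at 0 in all libraries. The part of these tissues in the claudin changes was not tested.

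**Figure D5:**
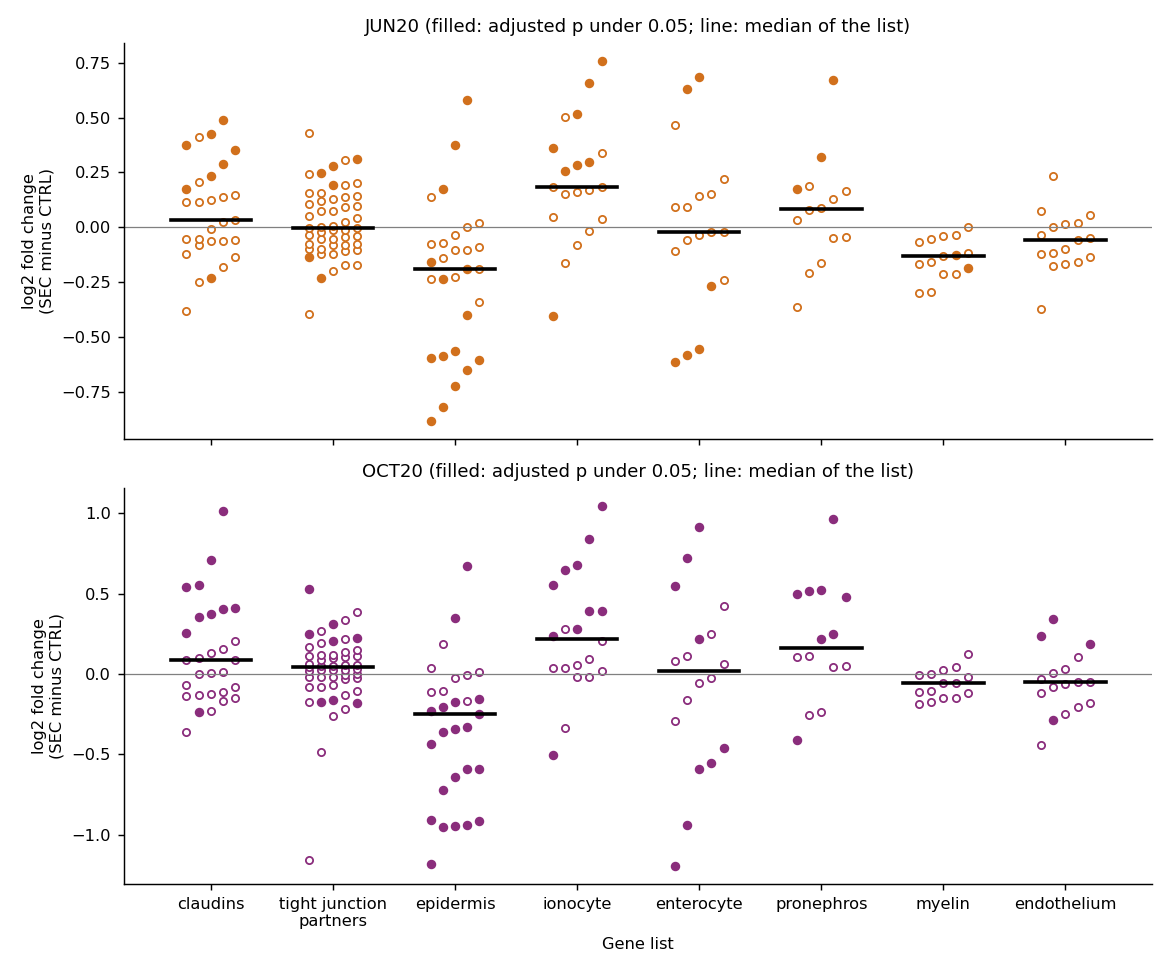
Log2 fold change (y axis) of every tested gene of the claudins and of 7 gene lists (x axis), for JUN20 above and OCT20 below, with filled points for adjusted p under 0.05 and a black line at each list's median. The epidermal list lies mostly below 0 in both campaigns, with medians of -0.19 and -0.25, while the called claudins lie mostly above it.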

How the data were processed

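RNA from 20 pools of 10 larvae was sequenced from a stranded mRNA library kit with unique molecular identifiers, per the labels' protocols. The authors deposited whole-number counts per gene, in 1 table and in files per sample that were equal to it in 20 of 20 libraries. The submitters' processing notes name CASAVA, STAR 2.7.8a, SAMtools, DESeq2 3.17 and genome build GRCz11. The counting tool, its strand setting, the annotation release and any collapse of molecular identifiers were not given by the sources used here, so levels of near-identical copies and of overlapping or antisense genes are uncertain.

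From the deposited counts, genes were kept by edgeR's filter with a minimum count of 10 (23121 of 32520), scaled by TMM and tested with edgeR 4.0.16 (limma 3.58.1, R 4.3.3) by the robust quasi-likelihood F test. All 20 libraries entered 1 fit of 4 group means, and p-values were adjusted over all tested genes by the Benjamini-Hochberg method, with a threshold of 0.05. The scripts were tested on simulated data. The contrasts were SEC against CTRL in each campaign, the difference between these effects, and the controls of OCT20 against those of JUN20. Standard errors are the log2 change divided by the square root of F, and 95% intervals span 1.96 of them on each side. These intervals are approximate and somewhat narrower than the F test implies. That of cldn17 in JUN20, -0.75 to -0.014, excludes 0 though its unadjusted p by the F test was 0.0543. The common biological coefficient of variation was 10.2%, and intervals and floors on single counts cover counting error only. Alternatives were DESeq2 1.42.0, RLE factors, library totals, no filter, a stricter filter, each campaign fitted alone, a replicate block, the October side as a covariate and leaving out each library. Fits within each October side were added after seeing the data.

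Values per library are given for the 8 members with the smallest adjusted p in each campaign, the 4 for each of the other contrasts (all among those past the threshold) and the 6 with the highest mean CPM, and other called members get their log2 change. Up to 4 genes a list with the smallest adjusted p may be named, and those named beyond these were chosen after their values were seen. The members and lists were chosen with earlier results of these data known. Of the 55 listed tight junction partners 51 symbols matched the table.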

Additional observations from a re-analysis of the deposited data

Results flagged for a closer look

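In 4 of 56 groups of 5 libraries (7.14%) of the named claudins, 1 library lay far from the other 4 by Dixon's criterion, where chance gives about 1 in 20 groups. CTRL OCT20 replicate 5 was low for cldne, at 65.7 CPM against 74.5 to 77.6 in the others, and for cldn23a, at 15.9 CPM against 18.4 to 18.9. CTRL JUN20 replicate 3 was high for cldn11b, at 19.3 CPM against 17.1 to 17.6. SEC JUN20 replicate 5 was high for cldnb, at 39.4 CPM against 29.5 to 32.3.

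The effect of the extract differed between the campaigns, by the test of the difference itself, for cldnb (0.56 larger in OCT20 on the log2 scale) and for cldn23a (0.59 larger in OCT20).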

How the results depend on the processing

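The counts of claudins that rose stayed within 1.5 times of 7 in JUN20 and 9 in OCT20 in every alternative run, at 5 to 8 and 9 to 10 when 1 library was left out. Over all genes, June calls in either direction ran from 1759 with the replicate block to 3681 with the October side as a covariate. The main fit called 2501. October calls ran from 2762 with the campaign's libraries alone to 5419 with that covariate. These ranges do not cover the fits that left out 1 library. The count of claudins that fell was 0 to 1 in each campaign when 1 library was left out. In JUN20 it was 0 with library totals alone, and in OCT20 it was 0 with the campaign's libraries alone and 3 with the October side as a covariate (cldn11b, cldn15la and cldn5b), where cldn7a also passed as higher. The fit with that covariate called 5419 of all genes in either direction in OCT20, against 4168 in the main fit. Claudins whose effect differed between campaigns numbered 4 with DESeq2, 1 with library totals, 1 without a filter and 5 with the side as a covariate, which adds cldn15la with a smaller October effect, and 1 to 2 when 1 library was left out. Over all genes such differences numbered 606 with DESeq2, 257 with library totals, 183 without a filter and 629 with the covariate. The main fit called 239. Calls of claudins between controls ran from 0 to 3. Over all genes they numbered 1127 without a filter and 2205 with the covariate, against 1341 in the main fit. The cause of these shifts was not tested.

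Same-numbered libraries had correlations of -0.071 to -0.015 in JUN20 and -0.35 to 0.23 in OCT20, where 2 exceeded 0.1. In both campaigns 0 correlated best with their own number. In OCT20 CTRL and SEC lay on the same side for replicates 2 and 5 and on opposite sides for replicates 1, 3 and 4. These correlations therefore cannot settle whether replicate numbers pair the October libraries. With the replicate block, the count that fell in JUN20 was 0 and 1 effect differed between campaigns, where 116 did over all genes. The June changes of cldnh (adjusted p = 0.0616), cldn11b (0.0703) and cldn7b (0.0754) then missed the threshold, as did the campaign difference of cldn23a (0.140). The controls of the campaigns could not be compared with the block, since each block lies within 1 campaign.

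Signs turned for October changes that were never called. That of cldni was 0.0042 with DESeq2, 0.0030 with RLE factors, 1.12e-04 without a filter, 0.0048 with the campaign alone, 0.022 on the low side and -0.039 to 0.027 with 1 library left out. That of cldn12 was -0.0062 with library totals, -4.16e-04 on the low side and -0.017 to 0.028 with 1 library left out, and that of cldn15a was -0.12 on the low side. With library totals the June change of cldn12 passed as higher (0.14, adjusted p = 0.0368).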

Other observations

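The reference table of symbols (NCBI RefSeq, assembly GRCz12tu) names 8 more genes cldn that the count table lists under other symbols, and 7 of them were tested. The gene listed as zgc:110333, cldn8.2 in the reference and the neighbour of cldn17, rose in both campaigns, from 20.3 ± 1.55 to 25.3 ± 1.23 CPM in JUN20 (log2 0.32 ± 0.071, adjusted p = 0.00534) and from 20.4 ± 2.54 to 24.6 ± 1.24 in OCT20 (log2 0.27 ± 0.072, adjusted p = 0.0101; SD, n = 5, edgeR's quasi-likelihood test across all genes). The gene listed as zgc:136892, cldn30 in the reference, was higher in OCT20 (log2 0.37 ± 0.11, adjusted p = 0.027) and not called in JUN20 (log2 0.24 ± 0.11, adjusted p = 0.176). The genes cldn29, cldn33b, cldn10d, cldn26 and cldn23l were not called in either campaign, and cldn10e had at most 8 counts in a library and was not tested.

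Among 12 hepatocyte markers 0 were called in JUN20 by edgeR, and 1 rose and 1 fell in OCT20, near the 9.54% and 8.49% of all genes that did. DESeq2 was not tallied for this list.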
